A study of Mus musculus with 6 samples.

Results

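The receptors of the common gamma chain cytokines were described in CD8+ T cells of mouse spleen through the mRNA of 8 chains. These were Il2rg, the common gamma chain itself, and the chains that pair with it in the receptors of IL-2 (Il2ra, Il2rb), IL-4 (Il4ra), IL-7 (Il7r), IL-9 (Il9r), IL-15 (Il15ra, with Il2rb) and IL-21 (Il21r). They were chosen by symbol, and all 8 were found among 35458 gene identifiers. The libraries came from 3 KO samples, labelled Cd4creGlut10fl/fl, in which Cre driven by the Cd4 promoter acts on floxed alleles of Glut10 (gene Slc2a10, a facilitative hexose transporter), and from 3 control samples, labelled Cd4cre, which carry the same Cre and no floxed allele in their label. The comparison asks how CD8+ T cells differ when this transporter is deleted. Age, sex and the number of mice behind each group are not in the labels, so every p-value refers to the spread among the sequenced libraries and that spread may be technical.

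A cytokine of this family brings its own receptor chain together with the common gamma chain, which carries the kinase JAK3, while the partner chain carries JAK1. The kinases then activate STAT factors, mainly STAT5 for IL-2, IL-7, IL-9 and IL-15, STAT6 for IL-4 and STAT3 for IL-21. In CD8+ T cells, IL-7 keeps naive and memory cells alive, IL-15 sustains memory cells through Il2rb, and IL-2 acts with high affinity once Il2ra is made after activation. The KO label could be checked only weakly: Slc2a10 was listed at 0 FPKM in KO 1, 2 and 3, against 4, 2 and 2 reads implied by the control values, and the values cover the whole gene rather than the deleted part. FPKM values divide the fragments of a gene by its length and by the total of the library.

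The libraries differed in ways that the genotype labels do not describe. Implied totals were 3420291, 14683394 and 3004540 fragments in KO 1, 2 and 3, against 11840640, 15020132 and 15036282 in control 1, 2 and 3. KO 1 and KO 3 had 18934 and 19268 genes at 1 FPKM or more, where KO 2 had 12200 and the controls had 12559 to 13713. In a gene of 1 kb, 3 reads give 0.877 and 0.998 FPKM in KO 1 and KO 3. They give 0.204 FPKM in KO 2 and 0.200 to 0.253 FPKM in the controls. A low total thus lets a gene reach 1 FPKM on few reads, and these counts of genes are not alike between libraries. Summed over 11 neutrophil genes, FPKM ran from 65.0 to 616 in the KO libraries and from 419 to 28746 in the controls. Control 2 stood at 15562 and control 3 at 28746. Of the 11 genes, 5 were lower in every KO library than in every control, which held for 9.44% of all genes tested. Summed over 6 erythroid genes FPKM ran from 2.62 to 33.8 in KO and from 6.05 to 2206 in control libraries. Summed over 6 B cell genes it ran from 42.9 to 72.3 in KO and from 9.99 to 38.8 in control libraries. Of these 6 genes, 2 were higher in every KO library than in every control, against 6.7% of all genes tested. The sum of 14 T cell core genes ran from 1603 to 2493 FPKM in KO libraries, against 1653, 512 and 411 FPKM in control 1, 2 and 3. Of these 14 genes, 5 were higher in every KO library than in every control, control 1 included, against 6.7% of all genes tested. Cd8a, the CD8 alpha chain, measured 101, 252 and 90.7 FPKM in KO 1, 2 and 3 and 191, 30.3 and 31.8 FPKM in control 1, 2 and 3. Cd4 stayed between 1.16 and 2.16 FPKM in KO and between 3.41 and 6.34 FPKM in control libraries. Of 4 CD4 and regulatory T cell genes, Cd4 and Zbtb7b were lower in every KO library than in every control, against 9.44% of all genes tested. Ikzf2 was higher in every KO library than in every control, against 6.7%, and Foxp3 overlapped. Control 2 and control 3 therefore held the least T cell mRNA and the most neutrophil and erythroid mRNA, and values without them are given beside many of the results. In bulk samples, fewer cells of a type and less RNA per cell cannot be told apart.

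The promoter sequences of 7 of the 8 genes (8 windows, as Il15ra has a pair of starts) were taken from RefSeq on GRCm38.p6, as the 250 bases before the start, and 3 short motifs of factors known to act on these genes or downstream of these receptors were searched on both strands. The motifs were the ETS core GGAAG, bound by Ets1 and Gabpa, the STAT motif TTCNNNGAA and the FOXO core GTAAACA, and no match of one overlapped a match of another in these windows. The windows of the gene with the widest span of levels, of the shared chain and of the one gene with a FOXO match are shown, in lower case with matches to any of the motifs in capitals. Il2rb is the gene without an entry.
Il7r, chr15:9529877-9530126, minus strand: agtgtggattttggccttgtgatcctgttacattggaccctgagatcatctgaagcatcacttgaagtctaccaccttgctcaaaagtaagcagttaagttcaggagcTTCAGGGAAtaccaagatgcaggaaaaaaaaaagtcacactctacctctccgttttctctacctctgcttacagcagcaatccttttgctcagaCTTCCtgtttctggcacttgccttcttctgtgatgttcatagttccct
Il2rg, chrX:101268256-101268505, minus strand: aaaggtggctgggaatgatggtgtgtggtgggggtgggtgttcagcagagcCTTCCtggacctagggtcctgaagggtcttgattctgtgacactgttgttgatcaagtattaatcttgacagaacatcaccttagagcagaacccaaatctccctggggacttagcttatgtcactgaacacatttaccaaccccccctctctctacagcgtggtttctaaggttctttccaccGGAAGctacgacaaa
Il21r, chr7:125603179-125603428, plus strand: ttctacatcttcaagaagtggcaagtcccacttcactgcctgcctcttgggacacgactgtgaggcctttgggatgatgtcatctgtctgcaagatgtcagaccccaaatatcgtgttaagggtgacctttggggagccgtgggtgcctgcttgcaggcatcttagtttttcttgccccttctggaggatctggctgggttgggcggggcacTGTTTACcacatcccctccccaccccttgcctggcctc

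The Il7r window held 1 ETS core, beginning 48 bases before the start, and 1 STAT motif, beginning 142 bases before it. That of Il2rg held 2 ETS cores, at 199 and 15 bases before the start, and that of Il21r held 1 FOXO core, at 38 bases. Among all 32851 promoter windows of the same length, 64.1% held an ETS core, 7.02% a STAT motif and 3.17% a FOXO core. A match describes letters only and is not a binding site. The ETS core also stood in the windows of Il2ra and Il4ra and in both windows of Il15ra, and not in those of Il9r and Il21r.

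Il2rg, the chain common to all these receptors, had similar levels in the KO libraries and in control 1. It measured 52.7, 71.6 and 68.3 FPKM in KO 1, 2 and 3, against 67.0, 29.3 and 19.1 FPKM in control 1, 2 and 3. Only control 2 and control 3 lay below the KO range, so the groups overlapped. The means were 64.2 ± 10.1 FPKM in KO and 38.5 ± 25.2 FPKM in control libraries (SD, n = 3 each). The log2 difference was 0.90 (SE 0.45, 95% confidence interval -0.19 to 1.99) with a limma adjusted p of 0.418. The log2 difference, here and throughout, is KO minus control on the scale of log2(FPKM + 1), which understates changes of low genes. Without control 2 and 3 together it was -0.07 (1 control library left). Gm20489, a gene model on the same strand, shares 728 exonic bases with Il2rg, and reads counted to either could leave the level of Il2rg uncertain.

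Il7r, the IL-7 receptor alpha chain, which naive and memory T cells carry and effector cells lose, had the highest level of the 8 chains in 5 of the 6 libraries and the largest estimated difference. It measured 518, 253 and 409 FPKM in KO 1, 2 and 3, against 370, 40.9 and 25.4 FPKM in control 1, 2 and 3. Control 1 lay inside the KO range, and control 2 and control 3 lay far below it, so that the highest control was 14.6 times the lowest while the highest KO library was 2.05 times the lowest. The means were 393 ± 134 FPKM in KO and 146 ± 195 FPKM in control libraries (SD, n = 3 each). The log2 difference was 2.35 (SE 0.98, 95% confidence interval -0.01 to 4.70).

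That difference did not pass the test, with a limma adjusted p of 0.417 (unadjusted 0.0509), at rank 1665 of the 13956 genes tested. Without control 1 the log2 difference of Il7r was 3.51 (SE 0.39) with a limma adjusted p of 0.0273, in a fit where 363 genes, or 2.6%, passed. Without control 2 and 3 together it was 0.03 (SE 0.52), against the single library control 1. Without KO 1 and 3 together it was 1.77 (SE 1.48). The estimate was thus carried by control 2 and control 3, the libraries with the lowest sums of T cell core genes and the highest sums of neutrophil genes, and the part of those cells in it was not tested.

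**Figure D1:**
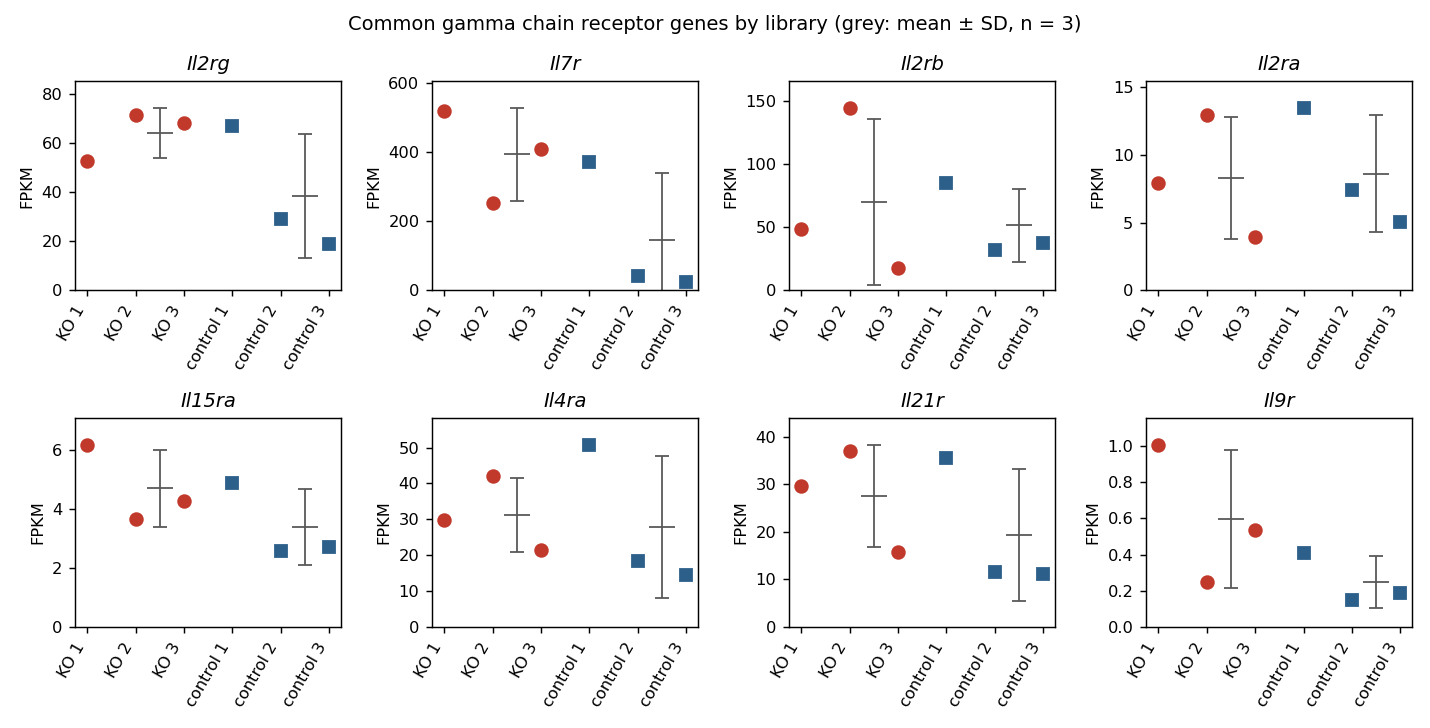
FPKM (vertical axes, each starting at 0) of the 8 receptor chains in the 3 KO libraries (red circles) and the 3 control libraries (blue squares); grey marks give the mean and SD of each group (n = 3), cut at 0 for Il7r in the controls. Every panel has overlapping groups, and for Il2rg, Il7r, Il15ra, Il4ra, Il21r and Il9r control 2 and control 3 are the lowest of the 6 libraries.

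Il2rb, the beta chain that IL-2 and IL-15 share and that carries most of the signal together with the gamma chain, varied most among the KO libraries. It measured 48.3, 144 and 17.6 FPKM in KO 1, 2 and 3, against 84.7, 32.2 and 37.7 FPKM in control 1, 2 and 3. KO 2 was the highest and KO 3 the lowest of all 6 libraries, 8.20-fold apart, so the control range lay inside the KO range. The means were 70.0 ± 66.0 FPKM in KO and 51.5 ± 28.9 FPKM in control libraries (SD, n = 3 each), a log2 difference of 0.09 with a 95% confidence interval of -1.78 to 1.96 (limma adjusted p = 0.963). Without KO 2 the log2 difference was -0.66, and without KO 1 and 3 together it was 1.60.

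Il2ra, the alpha chain that gives the IL-2 receptor its high affinity and that activated and regulatory T cells carry, was low in every library. It measured 7.88, 12.9 and 3.96 FPKM in KO 1, 2 and 3, against 13.4, 7.37 and 5.05 FPKM in control 1, 2 and 3. As for Il2rb, the libraries with the highest values were KO 2 and control 1. The means were 8.26 ± 4.50 FPKM in KO and 8.62 ± 4.32 FPKM in control libraries (SD, n = 3 each), a log2 difference of -0.08 (95% confidence interval -1.28 to 1.12, limma adjusted p = 0.946), and 0.63 without KO 1 and 3 together. Foxp3, the defining factor of regulatory T cells, measured 3.30, 2.13 and 0.584 FPKM in KO 1, 2 and 3, against 2.79, 1.54 and 0.650 FPKM in control 1, 2 and 3, and its part in the Il2ra level was not tested.

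Il15ra, which binds IL-15 and can present it to neighbouring cells, measured 6.18, 3.68 and 4.27 FPKM in KO 1, 2 and 3, against 4.88, 2.59 and 2.72 FPKM in control 1, 2 and 3. Control 1 again lay within the KO range. The means were 4.71 ± 1.31 FPKM in KO and 3.40 ± 1.29 FPKM in control libraries (SD, n = 3 each), a log2 difference of 0.39 (95% confidence interval -0.43 to 1.21, limma adjusted p = 0.568). The KO 1 and KO 3 values rested on 94 and 57 implied reads, which give exact Poisson intervals of 4.995 to 7.56 FPKM and 3.23 to 5.53 FPKM. These intervals are at the 95% level and cover counting error only.

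Il4ra, the IL-4 receptor alpha chain, which also serves IL-13 receptors and is made by many blood cells, measured 29.9, 42.2 and 21.5 FPKM in KO 1, 2 and 3, against 50.7, 18.4 and 14.5 FPKM in control 1, 2 and 3. Control 1 was the highest library and control 2 and 3 were the lowest, so the KO range lay inside the control range. The means were 31.2 ± 10.4 FPKM in KO and 27.9 ± 19.9 FPKM in control libraries (SD, n = 3 each), a log2 difference of 0.32 (95% confidence interval -0.90 to 1.53, limma adjusted p = 0.768), and -0.73 without control 2 and 3 together. The antisense gene model Gm44876 shares 571 exonic bases with Il4ra, and because the strand setting is not given, reads of the pair cannot be told apart.

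Il21r, the IL-21 receptor, measured 29.7, 36.9 and 15.8 FPKM in KO 1, 2 and 3, against 35.4, 11.5 and 11.2 FPKM in control 1, 2 and 3. Control 2 and control 3 lay just below the lowest KO library. The means were 27.5 ± 10.7 FPKM in KO and 19.4 ± 13.9 FPKM in control libraries (SD, n = 3 each), a log2 difference of 0.61 (95% confidence interval -0.66 to 1.88, limma adjusted p = 0.568), and -0.43 without control 2 and 3 together.

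Il9r, the IL-9 receptor, was near the limit of detection. It measured 1.005, 0.248 and 0.538 FPKM in KO 1, 2 and 3, against 0.410, 0.148 and 0.188 FPKM in control 1, 2 and 3. These values stood for 17, 18 and 8 implied reads in the KO libraries and for 24, 11 and 14 in the controls. Poisson intervals ran from 0.232 to 1.06 FPKM in KO 3 and from 0.263 to 0.610 FPKM in control 1. Il9r reached 1 FPKM in 1 library and so did not meet the filter of 1 FPKM in 3 libraries. In a fit without that filter its log2 difference was 0.33 (95% confidence interval -0.32 to 0.99, limma adjusted p = 0.530).

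At an adjusted p of 0.05, limma called 0 of the 7 chains in the fit and 0 (0%) of all 13956 genes. At an unadjusted p under 0.05 there were 0 of the 7 chains and 1646 genes, or 11.8%. Groups did not overlap for 0 of the 7 chains and for 16.1% of all genes. The estimate was higher in KO for 6 of the 7 chains and for 56.9% of all genes, and the median log2 difference was 0.39 over the chains and 0.10 over all genes. Without control 2 and 3 together the chain median was -0.43 and that of all genes -0.06, and without KO 1 and 3 together these were 1.07 and 0.01. limma-voom on implied reads called 0 chains and 0 of 16247 genes, and there 1 chain, Il7r, and 1349 genes had an unadjusted p under 0.05.

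**Figure D2:**
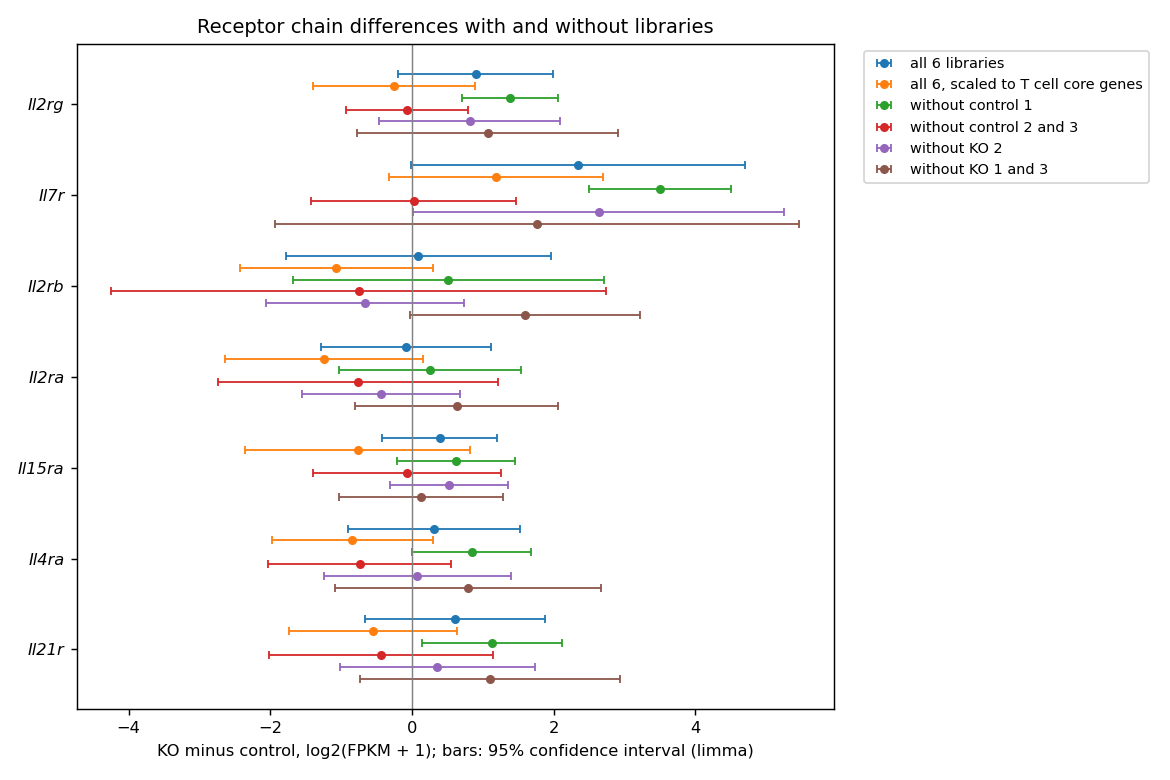
Log2 difference, KO minus control, on the log2(FPKM + 1) scale (horizontal axis) with its 95% confidence interval from limma for the 7 tested chains, with all libraries, after scaling to T cell core genes and with libraries left out. Il7r lies at 2.35 with all libraries, at 3.51 without control 1 and at 0.03 without control 2 and 3.

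Levels per length could be ordered within each group. In KO libraries the mean FPKM ran from Il7r (393) through Il2rb (70.0), Il2rg (64.2), Il4ra (31.2), Il21r (27.5), Il2ra (8.26) and Il15ra (4.71) to Il9r (0.597). The ranges over the KO libraries overlapped between Il2rb and Il2rg, between Il4ra and Il21r and between Il2ra and Il15ra, so these neighbours in the order did not separate. The control means gave the same order, from Il7r (146) to Il9r (0.249), and there all neighbours from Il7r down to Il2ra overlapped. In control 3, Il2rb rather than Il7r was the highest chain.

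The make-up of the receptor mRNA differed between libraries more than its order did. Il7r held 74.7%, 44.8% and 75.6% of the summed FPKM of the 8 chains in KO 1, 2 and 3, against 59.1%, 28.8% and 21.9% in control 1, 2 and 3. Il2rb held 6.96%, 25.5% and 3.24% in KO 1, 2 and 3, against 13.5%, 22.6% and 32.5% in control 1, 2 and 3. The ratio of Il7r to Il2rb, which sets the IL-7 receptor against the shared IL-2 and IL-15 receptor, was 10.7, 1.75 and 23.3 in KO 1, 2 and 3, against 4.37, 1.27 and 0.674 in control 1, 2 and 3. KO 2 and the controls thus shared the lower ratios, and KO 1 and KO 3, the libraries of lowest depth, had the highest. In KO 1 and KO 3, Il7r rested on 8268 and 5736 implied reads and Il2rb on 708 and 226. The part of depth in these ratios was not tested. The summed FPKM of the 8 chains was 694, 564 and 541 in KO 1, 2 and 3 and 627 in control 1, against 142 and 116 in control 2 and 3.

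Klf2, a factor of quiescent T cells, measured 460, 214 and 433 FPKM in KO 1, 2 and 3, against 397, 36.9 and 37.8 FPKM in control 1, 2 and 3. Tbx21, the effector factor T-bet, measured 0.940, 14.1 and 0.401 FPKM in KO 1, 2 and 3, against 5.36, 2.19 and 0.401 FPKM in control 1, 2 and 3. Klf2 was lowest in control 2 and control 3, as was Il7r, and Tbx21 was highest in KO 2 and control 1, as was Il2rb. Tbx21 is 1 of 6 effector T cell genes listed, which did not share a single pattern. Gzma, Prf1 and Klrg1 were also highest in KO 2 and control 1. Gzmb was highest in KO 2 and control 2, at 112 and 81.0 FPKM, and Ifng in KO 1 and KO 3, at 11.7 and 15.4 FPKM.

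**Figure D3:**
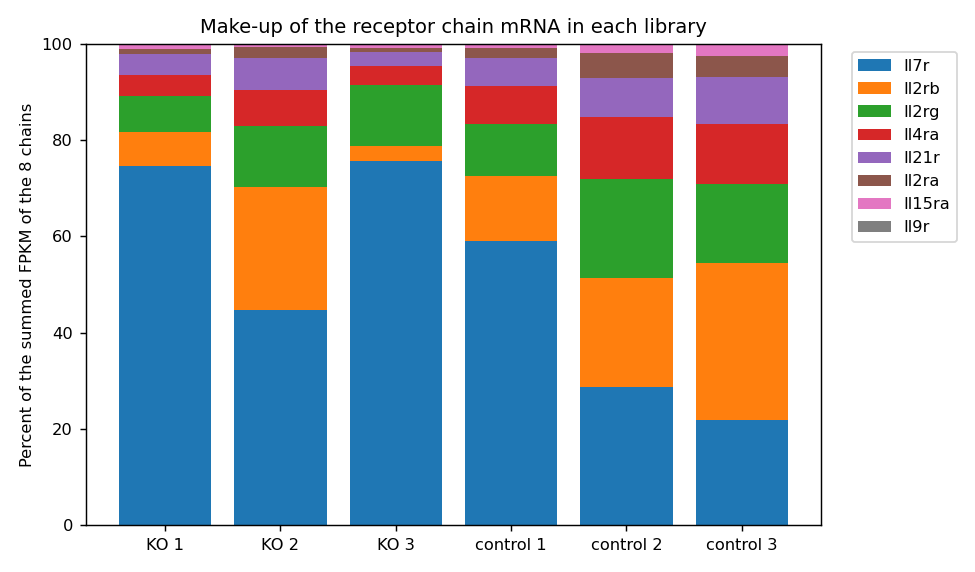
Percent of the summed FPKM of the 8 chains (vertical axis, 0 to 100) held by each chain in the KO and control libraries. Il7r holds 74.7% and 75.6% in KO 1 and KO 3, and 28.8% and 21.9% in control 2 and control 3.

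Because the T cell core genes differed between libraries, each chain was also read against them, as its log2(FPKM + 1) minus the mean of the 14 core genes. That mean was 6.35, 6.91 and 6.14 in KO 1, 2 and 3, against 6.43, 4.86 and 4.65 in control 1, 2 and 3. On this scale the median log2 difference of all genes was -1.06, so a chain with an estimate above -1.06 lay above the middle of all genes. Il7r stood at 2.67, 1.07 and 2.54 in KO 1, 2 and 3, against 2.11, 0.54 and 0.08 in control 1, 2 and 3, a log2 difference of 1.19 (SE 0.70, limma adjusted p = 0.273). Il7r was thus lower in control 2 and 3 than in the other libraries by more than the core genes were.

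The other chains had estimates below 0 on this scale. Il4ra stood at -1.40, -1.48 and -1.65 in KO 1, 2 and 3, against -0.74, -0.58 and -0.69 in control 1, 2 and 3, a log2 difference of -0.84 (SE 0.52, limma adjusted p = 0.286). Il21r stood at -1.41, -1.67 and -2.07 in KO, against -1.24, -1.21 and -1.03 in control libraries, and Il2ra at -3.20, -3.11 and -3.83 in KO, against -2.58, -1.79 and -2.05 in control libraries. For Il4ra, Il21r and Il2ra every KO library lay below every control, which held for 26.1% of all genes on this scale. Il2rb had a log2 difference of -1.07, Il15ra of -0.77 and Il2rg of -0.26, and their groups overlapped. On this scale limma called 0 chains and 0% of all genes at an adjusted p of 0.05. At an unadjusted p under 0.05 there were 0 chains and 2766 of 13956 genes, of which 2748 were lower and 18 higher in KO.

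**Figure D4:**
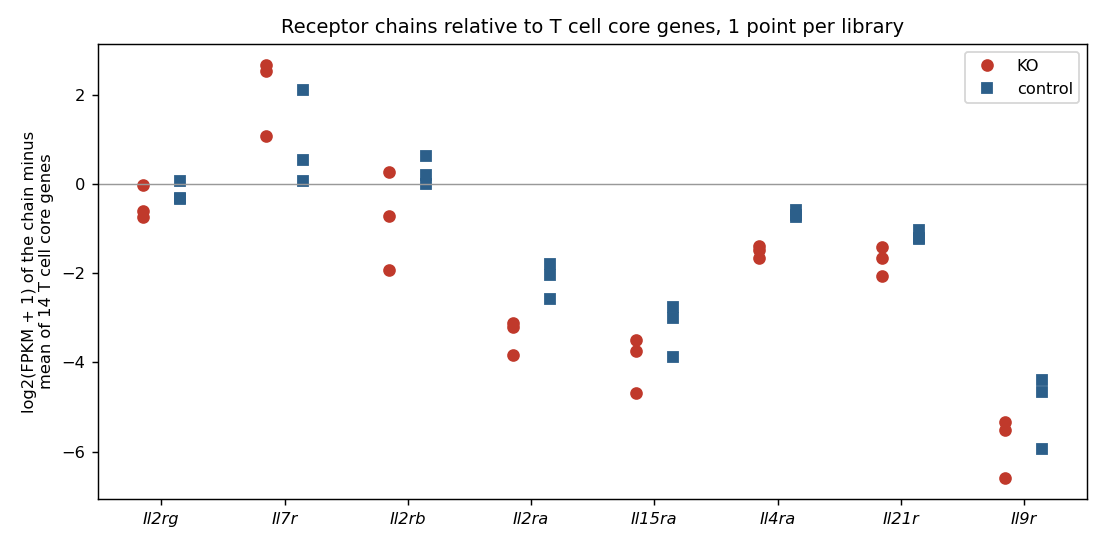
Level of each chain as log2(FPKM + 1) minus the mean of 14 T cell core genes (vertical axis), 1 point per library, KO in red circles left of control in blue squares. The KO points of Il4ra, between -1.65 and -1.40, lie below the control points, between -0.74 and -0.58.

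The 8 genes include pairs that lie next to each other in the genome. In GENCODE M21, Il15ra is the next protein-coding gene after Il2ra on chromosome 2, and Il21r the next after Il4ra on chromosome 7, each pair on the same strand. The ratio of Il4ra to Il21r kept a narrow range, at 1.004, 1.14 and 1.36 in KO 1, 2 and 3, against 1.43, 1.60 and 1.30 in control 1, 2 and 3. The ratio of Il2ra to Il15ra was wider, at 1.28, 3.52 and 0.929 in KO 1, 2 and 3, against 2.75, 2.84 and 1.86 in control 1, 2 and 3. For each tested chain the protein-coding genes outside the lists with the most similar pattern over the 6 libraries were sought by Pearson r of log2(FPKM + 1), as a description. The closest were Map2k7 and AI837181 for Il7r, Eif2b4 and Cryl1 for Il2rg, Ubash3a and Msh6 for Il2rb, Galnt7 and Man1a for Il2ra, Pigv and Ktn1 for Il15ra, Sf3b3 and Prr3 for Il4ra, and Tspyl3 and Arid5a for Il21r. Their r lay between 0.994 and 0.999, and the 6 points share depth and cell make-up. Because these genes were picked for the highest r among many over 6 points, values this high follow from the choice.

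Among the ligands, Il2, which activated T cells secrete, measured 14.3, 0.238 and 13.4 FPKM in KO 1, 2 and 3, against 1.77, 1.92 and 0.407 FPKM in control 1, 2 and 3. It was high in KO 1 and KO 3 and lowest in KO 2, a log2 difference of 1.53 (SE 1.02, limma adjusted p = 0.471) that was -0.86 without KO 1 and 3 together. Ifng, another cytokine of activated T cells, was high in the same libraries, at 11.7, 0.473 and 15.4 FPKM in KO 1, 2 and 3, against 1.70, 0.720 and 0.770 FPKM in control 1, 2 and 3. These are also the libraries with the lowest totals, the most genes at 1 FPKM and the highest sums of 5 NK cell genes. The NK sums were 35.1, 4.12 and 21.1 FPKM in KO 1, 2 and 3, against 4.48, 2.98 and 1.70 FPKM in control 1, 2 and 3. Klra9 alone measured 23.5 and 13.5 FPKM in KO 1 and KO 3, and Ncr1 and Klra4 were also highest there. Klrb1c and Klra8 were instead highest in KO 2, at 2.92 and 0.289 FPKM. The part of depth and of NK cells in the Il2 and Ifng values was not tested. Il4 measured 0.715, 0.333 and 1.09 FPKM in KO 1, 2 and 3, against 1.31, 2.28 and 2.44 FPKM in control 1, 2 and 3, every KO library below every control, as for 9.44% of all genes. Its log2 difference was -0.82 (limma adjusted p = 0.417), and -0.46 without control 2 and 3 together.

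Basophils make Il4, and 5 basophil and mast cell genes summed to 69.8, 144 and 247 FPKM in KO 1, 2 and 3, against 196, 1903 and 1241 FPKM in control 1, 2 and 3. Of the 5 genes, 2 were lower in every KO library than in every control, against 9.44% of all genes tested. The part of basophils and mast cells in the Il4 difference was not tested. Il15, which myeloid cells present to T cells, measured 1.94, 0.934 and 3.97 FPKM in KO 1, 2 and 3, against 2.43, 6.27 and 11.5 FPKM in control 1, 2 and 3, a log2 difference of -1.15 that was -0.17 without control 2 and 3 together. Il7, Il9 and Il21 did not meet the filter, and Il7, a cytokine of stromal cells, was at most 1.53 FPKM.

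Of the 2 partner chains, Crlf2, which joins Il7r in the receptor for TSLP, measured 48.3 ± 3.66 FPKM in KO and 60.5 ± 17.3 FPKM in control libraries (SD, n = 3 each). Il13ra1, which joins Il4ra in a receptor for IL-4 and IL-13, measured 2.67 ± 1.04 FPKM in KO and 3.75 ± 0.994 FPKM in control libraries. The groups overlapped for both. Unlike Il7r, Crlf2 was highest in control 2 and control 3, at 68.5 and 72.3 FPKM, with 40.6 FPKM in control 1 and 44.1 to 51.0 FPKM in the KO libraries.

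The JAK and STAT list held 7 genes, of which 3 had higher and 4 lower estimates in KO, with 0 past the test, 0 without overlap of the groups and a median log2 difference of -0.11. Jak1, the kinase of the partner chains, measured 159, 152 and 102 FPKM in KO 1, 2 and 3, against 144, 68.0 and 79.2 FPKM in control 1, 2 and 3. Jak3, the kinase of the gamma chain, measured 25.1, 66.0 and 12.3 FPKM in KO 1, 2 and 3, against 80.4, 15.3 and 13.5 FPKM in control 1, 2 and 3. Like Il2rb and Il2ra, Jak3 was highest in KO 2 and control 1. Stat5a and Stat5b measured 12.2 ± 5.48 and 29.0 ± 6.87 FPKM in KO libraries, against 13.9 ± 3.60 and 31.6 ± 8.53 FPKM in control libraries (SD, n = 3 each). Stat6, the factor that IL-4 activates, had a log2 difference of -0.62 and a limma adjusted p of 0.421, and -0.38 without KO 1 and 3 together.

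The feedback inhibitors, which these cytokines switch on and which dampen JAK signalling, held 5 genes, 4 with higher and 1 with lower estimates in KO, 0 past the test and a median of 0.33. Socs1 measured 53.7, 70.1 and 49.9 FPKM in KO 1, 2 and 3, against 67.4, 25.4 and 10.3 FPKM in control 1, 2 and 3, a log2 difference of 1.09 (limma adjusted p = 0.433) that was -0.23 without control 2 and 3 together. Socs2 measured 11.4, 1.73 and 9.11 FPKM in KO 1, 2 and 3, against 5.78, 1.22 and 1.02 FPKM in control 1, 2 and 3. Its log2 difference of 1.17 (limma adjusted p = 0.459) was 0.047 without control 2 and 3 together and -0.19 without KO 1 and 3 together. Socs3 measured 21.1, 57.2 and 10.8 FPKM in KO 1, 2 and 3, against 53.4, 17.6 and 6.49 FPKM in control 1, 2 and 3. Cish, a direct STAT5 target, measured 1.63 ± 1.04 FPKM in KO and 2.98 ± 1.29 FPKM in control libraries (SD, n = 3 each, log2 difference -0.62, limma adjusted p = 0.467). That of Cish was -1.12 without control 2 and 3 together and -0.011 without KO 1 and 3 together. KO 2 and control 1 were the 2 highest libraries for Socs1, Socs3 and Cish, and KO 1 and KO 3 were for Socs2.

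The list of cytokine targets held 8 genes, 4 with higher and 4 with lower estimates, 0 past the test and a median of 0.04. Bcl2, the survival gene that IL-7 maintains, measured 18.97, 10.97 and 19.6 FPKM in KO 1, 2 and 3, against 14.02, 4.24 and 3.14 FPKM in control 1, 2 and 3. Its libraries took the same order as those of Il7r apart from KO 1 and KO 3, and its log2 difference of 1.31 (SE 0.54, limma adjusted p = 0.417) was 0.18 without control 2 and 3. Osm, a cytokine that STAT5 induces and that neutrophils also make, measured 5.79, 6.74 and 5.71 FPKM in KO 1, 2 and 3, against 9.22, 32.9 and 14.3 FPKM in control 1, 2 and 3. Every KO library lay below every control for Osm, as for 9.44% of all genes. Its log2 difference was -1.30 (limma adjusted p = 0.417), and -0.53 without control 2 and 3 together. Mcl1, another survival gene, measured 152 ± 20.9 FPKM in KO and 164 ± 14.9 FPKM in control libraries (SD, n = 3 each).

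**Figure D5:**
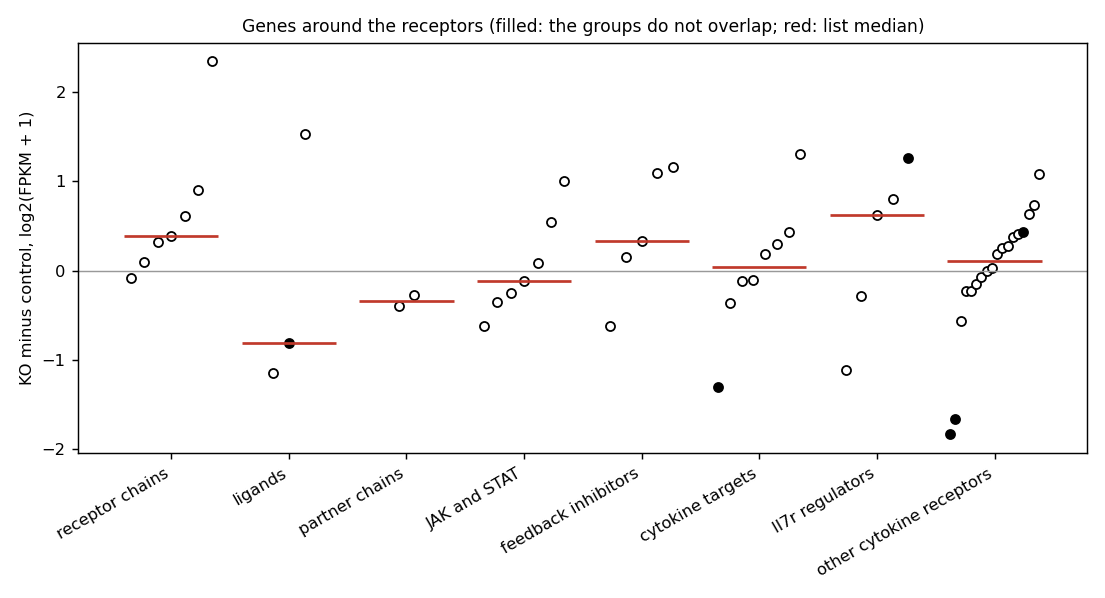
Log2 difference, KO minus control, on the log2(FPKM + 1) scale (vertical axis) of the tested receptor chains and of the genes in each list; filled points are genes whose KO and control libraries do not overlap, and red lines are list medians. The chain median is 0.39, and 0 of the 7 chains have filled points.

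Of the 5 factors known to control Il7r transcription, 3 had higher and 2 lower estimates in KO, with 0 past the test and a median of 0.62. Foxo1, an activator of Il7r, measured 16.9, 13.6 and 13.9 FPKM in KO 1, 2 and 3, against 12.7, 3.31 and 3.72 FPKM in control 1, 2 and 3. Every KO library lay above every control for Foxo1, as for 6.7% of all genes, with control 1 close to the KO range (log2 difference 1.27, SE 0.48, limma adjusted p = 0.417, and 0.20 without control 2 and 3 together). Gfi1, a repressor of Il7r that myeloid cells also make, measured 7.06, 18.5 and 3.34 FPKM in KO 1, 2 and 3, against 12.1, 22.1 and 22.0 FPKM in control 1, 2 and 3. Gfi1 was highest in control 2 and 3, where Il7r was lowest, and those libraries also had the highest sums of neutrophil genes. Foxp1, a factor of quiescent T cells, measured 17.4 ± 3.91 FPKM in KO and 9.76 ± 3.49 FPKM in control libraries (SD, n = 3 each), with a log2 difference of 0.80 (limma adjusted p = 0.417), and 0.30 without control 2 and 3 together.

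A list of 18 receptors of other cytokines is given for comparison. Of these, 10 had higher and 8 lower estimates, 0 passed the test and 3 had groups without overlap, near the 16.1% of all genes, with a median of 0.11. Il18rap, an IL-18 receptor chain, measured 1.13, 2.996 and 1.63 FPKM in KO 1, 2 and 3, against 6.15, 7.79 and 15.2 FPKM in control 1, 2 and 3 (log2 difference -1.84, SE 0.43, limma adjusted p = 0.417). Il1r2, a decoy receptor for IL-1 that neutrophils carry, measured 4.14, 8.67 and 1.40 FPKM in KO 1, 2 and 3, against 14.8, 17.6 and 12.0 FPKM in control 1, 2 and 3 (log2 difference -1.67, limma adjusted p = 0.417, and -0.69 without KO 1 and 3 together). For both, control 1 also lay above every KO library. Among the 8 gamma chain receptor genes that held for Il2ra and Il4ra alone.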

How the data were processed

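Each deposited file holds 1 FPKM value per gene for 1 library. The unit was read from the values, as the labels name none. HISAT2 (version 2), HTSeq (0.6.0), Bowtie2 (2.2.3) and mm8 are listed in the submitters' processing notes without a role, and how the authors went from reads to FPKM, by which annotation and strand, is not given in the sources used here. GENCODE M21 supplied symbols and exon lengths for 35313 of 35458 identifiers. Multiplied by exon length, 92.1% to 93.4% of the values under 200 implied reads lay within 0.02 read of a whole multiple of a unit found for each library, which gave the implied totals. limma 3.58.1 (R 4.3.3) was run on log2(FPKM + 1) of 13956 genes (1 FPKM or more in 3 or more libraries), with a variance trend, genotype as the single factor and Benjamini-Hochberg adjustment over all genes at 0.05. limma-voom used genes with 10 or more implied reads in 3 or more libraries. An exact permutation test of 3 against 3 libraries cannot go below p = 0.1 and was not used. The procedure was tested on simulated data. The promoter coordinates belong to RefSeq on GRCm38.p6, not to mm8. The 8 genes, the lists and the alternatives were chosen with earlier results of these data known. All 8 chains are named. In each list the genes of smallest p are named, except 1 that is not reported here, with others chosen by role after their values were seen, as were Klf2, Tbx21, Ifng and Foxp3. Plots used matplotlib 3.10.9 under Python 3.11.15.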

Additional observations from a re-analysis of the deposited data

How the results depend on the processing

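With all 6 libraries 0 genes and 0 chains passed, and the same held with quantile normalization, a pseudocount of 0.1, all genes kept whatever their level, T cell core scaling, limma-voom on implied reads, protein-coding genes only and without control 2 and 3 or KO 1 and 3 together. Leaving out 1 library gave 0 to 1821 genes (1821 without KO 2, 363 without control 1) and 0 to 1 chains, the 1 being Il7r without control 1 (3.51, limma adjusted p 0.0273, against 0.188 to 0.801 without any other library). Single omissions moved the log2 difference from 1.60 to 3.51 for Il7r, 0.51 to 1.39 for Il2rg, 0.34 to 1.13 for Il21r, 0.21 to 0.62 for Il15ra, -0.03 to 0.84 for Il4ra, -0.66 to 0.82 for Il2rb and -0.44 to 0.30 for Il2ra.

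Of 105 values of chains under other settings, 19 changed sign. With T cell core scaling these were Il2rg -0.26, Il21r -0.55, Il15ra -0.77, Il4ra -0.84 and Il2rb -1.07. Without control 2 and 3 they were Il2rg -0.072, Il15ra -0.067, Il21r -0.43, Il4ra -0.73 and Il2rb -0.75. Il2rb was also -0.061 after quantile normalization, -0.66 without KO 2, -0.17 without control 2 and -0.063 without control 3. Il4ra was -0.026 without control 3. Il2ra was 0.18 with limma-voom, 0.30 without KO 3, 0.26 without control 1 and 0.63 without KO 1 and 3. T cell core scaling lowers the estimate of every gene by the same amount, which took the median of all genes from 0.10 to -1.06. Its sign changes therefore follow from that shift. The cause of the other sign changes was not tested. Fits with 1 library in a group assume that it varies like the other group. With the replicate number as a block, 0 genes passed as well, and 1692 against 1646 had an unadjusted p under 0.05. Deviations of same-numbered libraries from their group means correlated at 0.112, 0.0202 and 0.0175. Of 3 KO and 3 control libraries, 2 and 1 correlated best with their own number. With 3 libraries in each group these values cannot settle whether same-numbered libraries share more than a number. The low totals of KO 1 and KO 3 limit Il9r and Il15ra most.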
